A study of Mus musculus with 6 samples.

Results

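The genes of the red cell membrane and its skeleton are described here as 9 loci of 23746 in bone marrow of mice that lack Diap1. They were chosen by name: Spna1 and Spnb1 (older symbols of the erythroid alpha and beta spectrins), Ank1, Slc4a1, Gypc, Rhag, Add2, Tmod1 and Kel. Each name was found at 1 locus in all 6 libraries, always with a positive level. Diap1 encodes mDia1, a formin that nucleates and elongates unbranched actin filaments. Knockout (KO), heterozygous (Het) and wild type (WT) C57BL/6 mice of 12 weeks were compared, with the marrow of 4 mice of a genotype combined before any sorting. From each pool, cells that carried Mac1 together with Gr1, a pair of myeloid surface proteins, were captured on magnetic beads (the Gr1+Mac1+ fraction), and what was left was depleted to progenitors without lineage markers (the Lin- fraction). Each genotype and fraction is therefore 1 library, so genotypes could not be tested against each other within a fraction. The labels name neither the allele nor the sex of the mice.

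Beneath the red cell membrane, alpha and beta spectrin form long tetramers that join short actin filaments into a lattice. Ankyrin, the product of Ank1, ties beta spectrin to band 3, the chloride and bicarbonate exchanger encoded by Slc4a1. The ammonia channel Rhag belongs to the same complex. At the junctions, beta adducin (Add2) and tropomodulin (Tmod1) cap opposite ends of the actin filaments, while glycophorin C (Gypc) links that site to the membrane and Kell (Kel), a membrane metalloprotease, carries a blood group in humans. Erythroblasts build this set while they mature in the marrow, and the genes are switched on by GATA and KLF transcription factors.

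Levels are deposited as FPKM, fragments divided by the length of the transcript and by the library's mapped total, so they can be compared between genes. A level comes with a deposited 95% interval that covers error within 1 library, called counting error here. For Ank1 it does not follow counting alone. Its intervals imply 418, 637 and 1899 fragments in KO, Het and WT Gr1+Mac1+ cells, where it had 8.04, 11.8 and 15.4 FPKM. Over the loci used, the intervals imply between 8630000 and 11600000 fragments a library. Diap1 itself stood at 6.07 FPKM in KO, 24.2 in Het and 36.0 in WT Lin- cells, and at 4.07, 34.1 and 57.1 in KO, Het and WT Gr1+Mac1+ cells, in the order of the labels. Itgam, which encodes the Mac1 alpha chain, was at 293 to 311 FPKM in the Gr1+Mac1+ and at 0.640 to 16.9 in the Lin- libraries, and Kit, a progenitor receptor, was at 66.4 to 84.7 in Lin- and 14.9 to 15.7 in Gr1+Mac1+ libraries. The Het Lin- library stood apart: its 9 neutrophil markers summed to 7955 FPKM, against 77.7 in KO and 64.7 in WT Lin- cells. The Gr1+Mac1+ libraries also held red cell transcripts, with 25 of 25 measured erythroid genes outside the membrane at an FPKM of at least 1, so red cell genes were read in both fractions.

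Promoters were available in RefSeq (GRCm38.p6) for 5 of the 9 genes, and 4 are shown, those whose start lies at the edge of the deposited locus (Rhag at chr17:40810899-40811198 on the plus strand, Kel at chr6:41704276-41704575 on the minus strand, Spnb1 at chr12:76710498-76710797 on the minus strand, Tmod1 at chr4:46038972-46039271 on the plus strand). They are given because Rhag and Tmod1 are the members past the rule of size described below, with Kel and Spnb1 to set beside them. Each is 300 bases long, from 250 before to 50 after the start, and runs 5′ to 3′. Capitals mark the letters that GATA factors prefer (AGATAA, and in its other form TGATAA) and those of KLF factors (CACCC), searched on both strands.
Rhag: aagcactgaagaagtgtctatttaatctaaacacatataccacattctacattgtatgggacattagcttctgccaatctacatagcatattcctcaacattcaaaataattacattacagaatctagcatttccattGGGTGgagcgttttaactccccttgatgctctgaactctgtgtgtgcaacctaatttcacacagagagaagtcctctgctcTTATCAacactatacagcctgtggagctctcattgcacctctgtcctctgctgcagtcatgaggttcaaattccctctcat
Kel: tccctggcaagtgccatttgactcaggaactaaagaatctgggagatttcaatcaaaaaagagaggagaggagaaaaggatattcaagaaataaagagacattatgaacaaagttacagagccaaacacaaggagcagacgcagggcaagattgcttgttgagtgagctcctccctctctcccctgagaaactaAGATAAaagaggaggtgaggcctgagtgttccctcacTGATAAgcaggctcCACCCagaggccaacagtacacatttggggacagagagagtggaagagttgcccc
Spnb1: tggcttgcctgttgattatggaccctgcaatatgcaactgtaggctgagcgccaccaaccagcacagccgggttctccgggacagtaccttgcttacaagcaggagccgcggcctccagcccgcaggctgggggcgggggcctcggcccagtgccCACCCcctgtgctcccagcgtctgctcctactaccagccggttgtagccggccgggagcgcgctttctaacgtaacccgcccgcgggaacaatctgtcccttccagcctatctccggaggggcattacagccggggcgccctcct
Tmod1: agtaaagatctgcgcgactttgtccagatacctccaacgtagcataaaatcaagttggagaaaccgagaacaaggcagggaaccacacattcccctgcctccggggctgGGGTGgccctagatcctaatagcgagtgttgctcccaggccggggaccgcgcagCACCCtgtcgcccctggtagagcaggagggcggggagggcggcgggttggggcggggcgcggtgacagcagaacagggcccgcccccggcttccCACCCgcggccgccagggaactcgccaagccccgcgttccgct
Kel held all these motifs, with AGATAA beginning at base -56 from the start, TGATAA at -19 and the KLF word at -5. Rhag held TGATAA at -31 and the KLF word at -112, each on the opposite strand and so printed as its reverse complement. Spnb1 and Tmod1 held the KLF word but neither GATA form, with 1 match in Spnb1 and 3 in Tmod1. Over 32851 RefSeq promoters of this length, 18.6% held a GATA form, 57.5% held the KLF word and 8.97% held both kinds, so the KLF word is common in any promoter and the GATA forms less so. A match is a stretch of letters and not a bound site.

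In KO Gr1+Mac1+ cells the whole set was low: 9 of 9 genes were below WT with intervals that did not overlap, where 5.57% of the 11270 loci tested were. The log2 ratios, taken on log2(FPKM + 1), had a median of -0.89 and ran from -1.04 for Rhag to -0.53 for Tmod1, against a median of 0.01 over all loci tested. In Lin- cells of the same pools the set showed no such shift, with a median of -0.02. In bulk samples, fewer cells of a type and less RNA per cell cannot be told apart.

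The spectrins, which make up the lattice, stood low as a pair in KO Gr1+Mac1+ cells. Spna1 (chromosome 1, 174172776 to 174248449, mm10) had 7.98 FPKM in KO, 9.99 in Het and 15.2 in WT Gr1+Mac1+ cells. Spnb1 (chromosome 12, 76580488 to 76710547) had 8.14 in KO, 12.7 in Het and 16.3 in WT Gr1+Mac1+ cells. For both genes the 3 intervals were apart and ordered by the number of Diap1 copies, with KO at 52.6% of WT for Spna1 and at 49.8% for Spnb1. In Lin- cells Spna1 was level, at 32.3 FPKM in KO, 33.6 in Het and 32.8 in WT cells. Spnb1 was less even there, at 32.1 FPKM in KO, 39.8 in Het and 37.3 in WT cells, and KO was the lowest with an interval apart from the other two. The ratio of the alpha to the beta chain in FPKM was 1.01 in KO, 0.844 in Het and 0.878 in WT Lin- cells, and 0.980, 0.790 and 0.927 in KO, Het and WT Gr1+Mac1+ cells, with counting standard errors of 0.0182 to 0.0481. The 2 chains of the heterodimer thus stood at similar transcript levels in each library, and KO had the highest ratio in both fractions. In Gr1+Mac1+ cells KO and WT were not apart, given counting standard errors of 0.0481 in KO and 0.0280 in WT.

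Ank1 and Slc4a1 encode the anchor and the exchanger it holds, and they parted between fractions while sharing the genotype pattern in Gr1+Mac1+ cells. Ank1 (chromosome 8, 22974882 to 23150496) had 8.04 FPKM in KO, 11.8 in Het and 15.4 in WT Gr1+Mac1+ cells, and 63.7, 62.9 and 63.3 in KO, Het and WT Lin- cells. It was the steadiest of the 9 in Lin- cells, where its highest level was 1.01 times its lowest. Slc4a1 (chromosome 11, 102348820 to 102365281) had 87.0 FPKM in KO (95% interval 84.4 to 89.7), 118 in Het (115 to 121) and 162 in WT (159 to 166) Gr1+Mac1+ cells. They rest on 4296, 6983 and 10880 implied fragments, and the 3 intervals lay apart. In Lin- cells Slc4a1 ran the other way against WT, at 29.9 FPKM in KO, 36.5 in Het and 24.95 in WT cells, again with 3 separate intervals but with Het the highest. Its log2 ratio to WT was 0.25 in KO and 0.53 in Het Lin- cells, and -0.89 in KO and -0.46 in Het Gr1+Mac1+ cells.

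Among the surface proteins, Rhag (chromosome 17, 40811149 to 40840754) had 12.7 FPKM in KO (11.3 to 14.2), 14.2 in Het (12.8 to 15.6) and 27.2 in WT (25.4 to 29.1) Gr1+Mac1+ cells. KO and Het overlapped and both lay below WT, so the level with 1 copy of Diap1 was close to the level with none. Rhag was the only member past the rule of size in KO against WT Gr1+Mac1+ cells, with a log2 ratio of -1.04 (counting SE 0.09). The rule asks for a ratio of 2-fold or more on log2(FPKM + 1), separate intervals and a higher value of 5 FPKM or more. Of the loci, 0.0976% passed it as lower. In Lin- cells Rhag, the most abundant member there, had 90.7 FPKM in KO, 100 in Het and 103 in WT cells, and KO was below the other two with separate intervals.

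Kel (chromosome 6, 41686330 to 41704325) had 14.3 FPKM in KO, 18.4 in Het and 27.4 in WT Gr1+Mac1+ cells, 3 levels with intervals apart. In Lin- cells it was at 85.8 FPKM in KO, 93.4 in Het and 87.8 in WT cells, and neither KO nor Het was apart from WT. Gypc (chromosome 18, 32528320 to 32560034) shares its chromosome with Diap1, at a distance of 5.29 Mb. Gypc had 17.7 FPKM in KO, 18.5 in Het and 26.0 in WT Gr1+Mac1+ cells, with KO and Het overlapping and both below WT. In Lin- cells Gypc had 64.2 FPKM in KO, 58.5 in Het and 55.5 in WT cells, and KO was above WT with separate intervals.

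The caps of the actin filament differed from each other. Add2 (chromosome 6, 86078084 to 86119555) had 6.55 FPKM in KO, 9.39 in Het and 13.9 in WT Gr1+Mac1+ cells, with 3 separate intervals and KO at 47.0% of WT. Its log2 ratio of -0.98, on log2(FPKM + 1), was the nearest to the 2-fold limit among the 8 members that stayed inside it. On FPKM with nothing added, Add2 and Spnb1 (49.8% of WT) were past 2-fold too, so the added 1 decides their place. In Lin- cells Add2 had 87.9 FPKM in KO, 93.6 in Het and 97.2 in WT cells, a small step down in KO with intervals apart from WT alone. Tmod1 (chromosome 4, 46039222 to 46116032), the pointed end cap, was the least abundant of the 9 in each library. It had 5.36 FPKM in KO (4.55 to 6.17), 3.19 in Het (2.59 to 3.80) and 2.04 in WT (1.56 to 2.52) Lin- cells, 3 separate intervals in the order opposite to that of the spectrins in Gr1+Mac1+ cells. In Gr1+Mac1+ cells it had 2.91 FPKM in KO, 4.50 in Het and 4.64 in WT cells, with KO alone set apart. Tmod1 passed the rule of size as higher in KO against WT Lin- cells with a log2 ratio of 1.06 (counting SE 0.15), where 0.137% of 10952 loci did, on 177 implied fragments in KO and 73 in WT. Its level is uncertain, because 1287 bases of its exons overlap those of Tstd2 on the opposite strand and whether reads were counted by strand is not stated. Of the 50-base words in its longest transcript, 39.8% also occur in transcripts of other genes, searched on both strands. Bases shared with Tstd2 count in that share, so it is not a separate measure from the overlap. Tstd2 stood at 12.8 FPKM in KO, 13.0 in Het and 12.7 in WT Lin- cells, and at 9.78, 11.2 and 11.0 in KO, Het and WT Gr1+Mac1+ cells. Exons of Ank1 and Add2 also overlap antisense genes, by 862 and 356 bases.

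**Figure D1:**
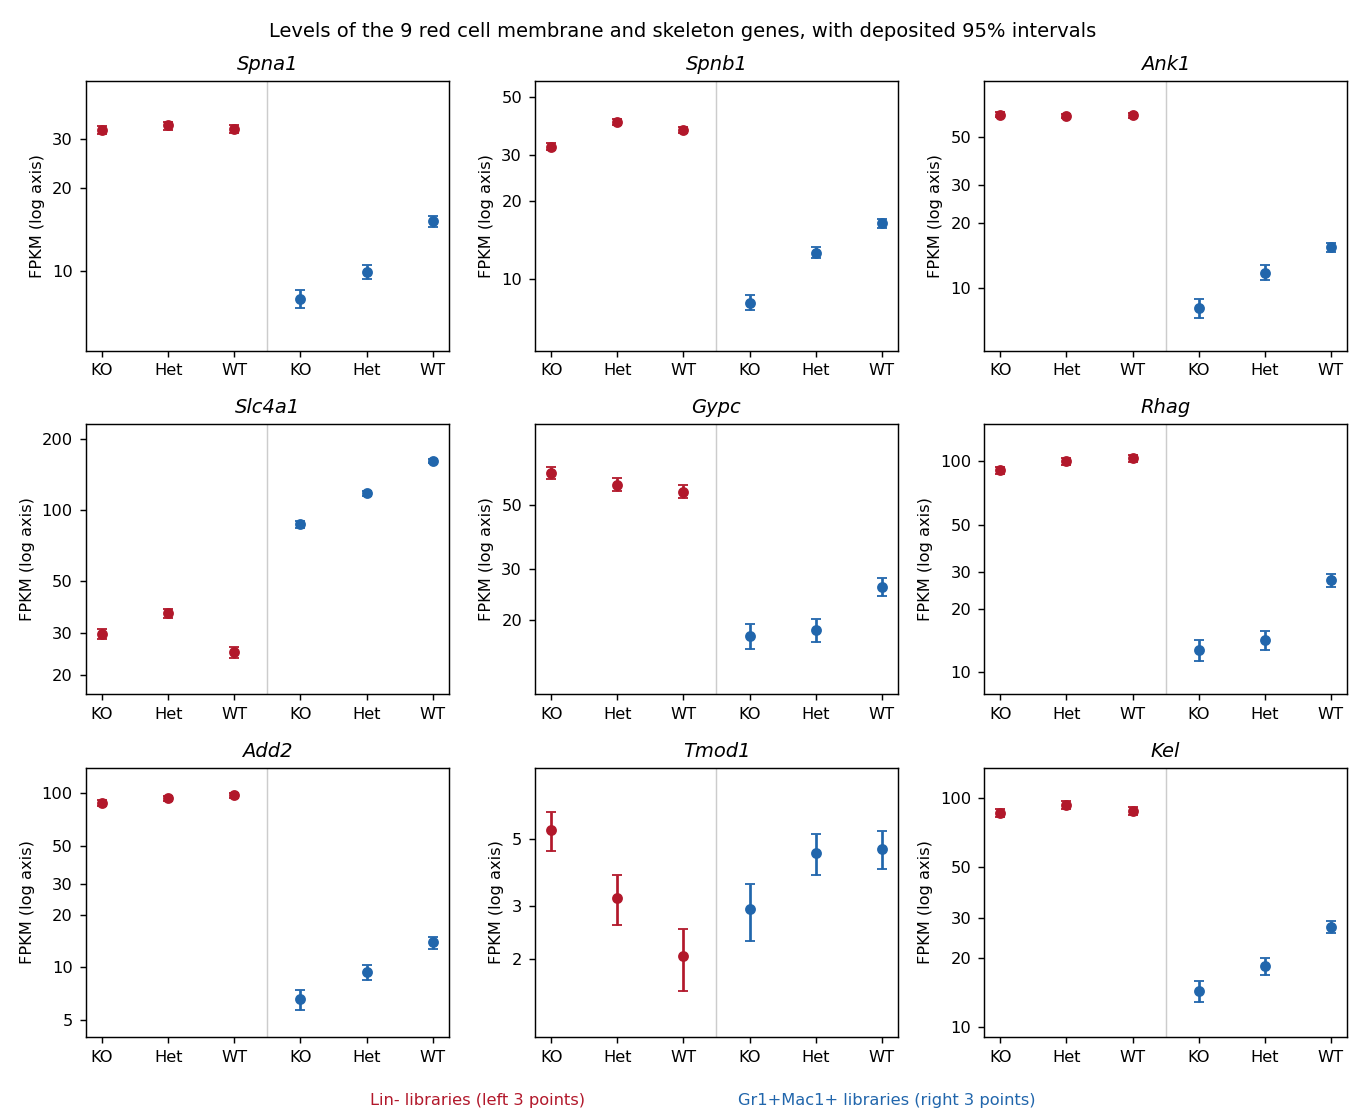
FPKM (log axis) of each gene in the KO, Het and WT libraries of the Lin- fraction (red, left) and the Gr1+Mac1+ fraction (blue, right), with bars for the deposited 95% intervals. In the blue points KO is the lowest of each panel's 3 and WT the highest, while the red points overlap between KO and WT for Spna1, Ank1 and Kel and are highest in KO for Tmod1.

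The KO against WT comparison in Lin- cells split the set: Slc4a1, Gypc and Tmod1 were higher with separate intervals, against 6.16% of all loci, and Spnb1, Rhag and Add2 were lower, against 7.38%. The lower ones were small, at log2 ratios of -0.21, -0.18 and -0.14. Spna1, Ank1 and Kel overlapped. A count of 3 in each direction leaves no common direction for the set, where the Gr1+Mac1+ libraries of the same pools had 9 of 9 lower. Markers of other cells differed as well between these Lin- libraries: 9 megakaryocyte and platelet markers summed to 244 FPKM in KO and 360 in WT, 6 of them lower with separate intervals, and 5 progenitor markers summed to 358 in KO and 310 in WT. Stromal markers summed to 477 FPKM in KO and 396 in WT, with 5 of 5 ratios positive, and monocyte and macrophage markers to 32.5 and 18.4 in KO and WT, with 4 of 4 measured positive. T and NK markers summed to 32.4 FPKM in KO and 39.4 in WT, with 5 of 5 ratios negative. Their part in the values of the 9 genes was not tested.

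With 1 copy of Diap1 the Gr1+Mac1+ pattern was present at a smaller size. In Het against WT, 9 of 9 log2 ratios were negative with a median of -0.47, and 8 were lower with separate intervals, where 8.49% of 11274 loci were. Tmod1, at -0.04, was the exception. None of the 9 passed the rule of size, which 0.133% of loci passed in either direction. Rhag had the largest Het ratio at -0.89, and the other 7 lay between -0.56 for Spna1 and -0.35 for Spnb1. The KO and Het comparisons share the WT library, so a low or high WT value would move both.

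KO against Het does not use the WT library. It shares the KO library with KO against WT and the Het library with Het against WT. It is therefore not independent of them, and it also gave 9 negative ratios in the Gr1+Mac1+ fraction. Their median was -0.43. Of these, 7 had separate intervals, where 9.13% of loci were lower in that way, and Gypc (-0.06) and Rhag (-0.15) overlapped. No member passed the rule of size (0.133% of loci did). Spnb1 had the largest step, at -0.58, followed by Ank1 and Tmod1 at -0.50 and -0.49. The Het interval overlapped that of KO for Rhag and Gypc and that of WT for Tmod1, and lay apart from both for Spna1, Spnb1, Ank1, Slc4a1, Add2 and Kel. Whether the genes differ in this was not tested, since each genotype is 1 library.

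Het against WT Lin- cells gave 3 members higher with separate intervals, Spnb1, Slc4a1 and Tmod1, at log2 ratios of 0.09, 0.53 and 0.46, and none lower. Of all 10956 loci, 8.41% were higher in that way, and 1.36% passed the rule of size, which no member did. KO against Het Lin- cells had Tmod1 higher (3.57% of loci) and Spnb1, Slc4a1, Rhag and Kel lower (7.4%), and again none past the rule of size (1.25%). The Het Lin- library with its neutrophil transcripts stands in both comparisons. Megakaryocyte and platelet markers moved with it, 9 of 9 higher in Het than in WT with sums of 496 and 360 FPKM, and stromal markers summed to 763 FPKM in Het and 396 in WT. Their part in these values was not tested.

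**Figure D2:**
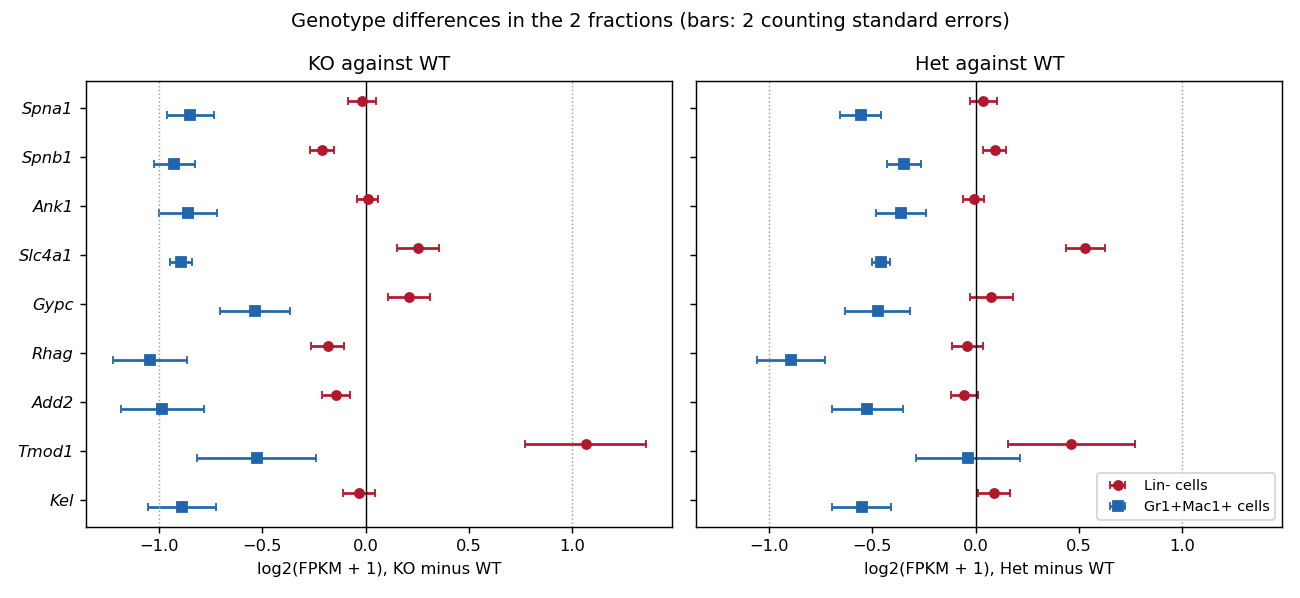
Differences in log2(FPKM + 1) of KO minus WT (left) and Het minus WT (right) for each gene in Lin- cells (circles) and Gr1+Mac1+ cells (squares), with bars of 2 counting standard errors and dotted lines at 2-fold. In KO the squares lie between -1.04 and -0.53 while the circles scatter about 0 apart from Tmod1 at 1.06.

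Taking the fractions side by side, 3 genes stood on opposite sides of WT in KO with intervals apart in both fractions, Slc4a1, Gypc and Tmod1, higher in KO Lin- and lower in KO Gr1+Mac1+ cells than in WT. This pattern was met by 1.09% of the 10254 loci tested in both fractions. In Het the same held for Spnb1 and Slc4a1, against 1.72% of 10263 loci. For the 6 others in KO, the difference between the fractions was of similar size, from 0.71 for Spnb1 to 0.87 for Ank1 on the log2 scale. These differences carry only the error of the deposited intervals and were not tested.

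The summed level of the 9 genes was 165 FPKM in KO, 217 in Het and 309 in WT Gr1+Mac1+ cells, and 492, 522 and 504 in KO, Het and WT Lin- cells. Slc4a1 held 52.6% of the sum in KO, 54.3% in Het and 52.6% in WT Gr1+Mac1+ cells. The shares of Gypc and Rhag were less even there. Gypc held 10.7% in KO, 8.51% in Het and 8.44% in WT, and Rhag held 7.69%, 6.54% and 8.83% in KO, Het and WT. Kel differed less, with 8.66% in KO, 8.45% in Het and 8.87% in WT. In Lin- cells Slc4a1 held 6.08% in KO, 6.99% in Het and 4.95% in WT, and Rhag, Add2 and Kel each held 17.4% to 20.5%. Per Spna1 transcript, Slc4a1 stood at 10.9 in KO, 11.8 in Het and 10.7 in WT Gr1+Mac1+ cells, and at 0.925, 1.09 and 0.762 in KO, Het and WT Lin- cells. Add2 per Spna1 went the other way, with 2.72 in KO, 2.78 in Het and 2.97 in WT Lin- cells and 0.822, 0.940 and 0.919 in KO, Het and WT Gr1+Mac1+ cells. The band 3 transcript was thus more than 10 times its spectrin in Gr1+Mac1+ libraries and about level with it in Lin- libraries, a larger gap than any between genotypes.

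**Figure D3:**
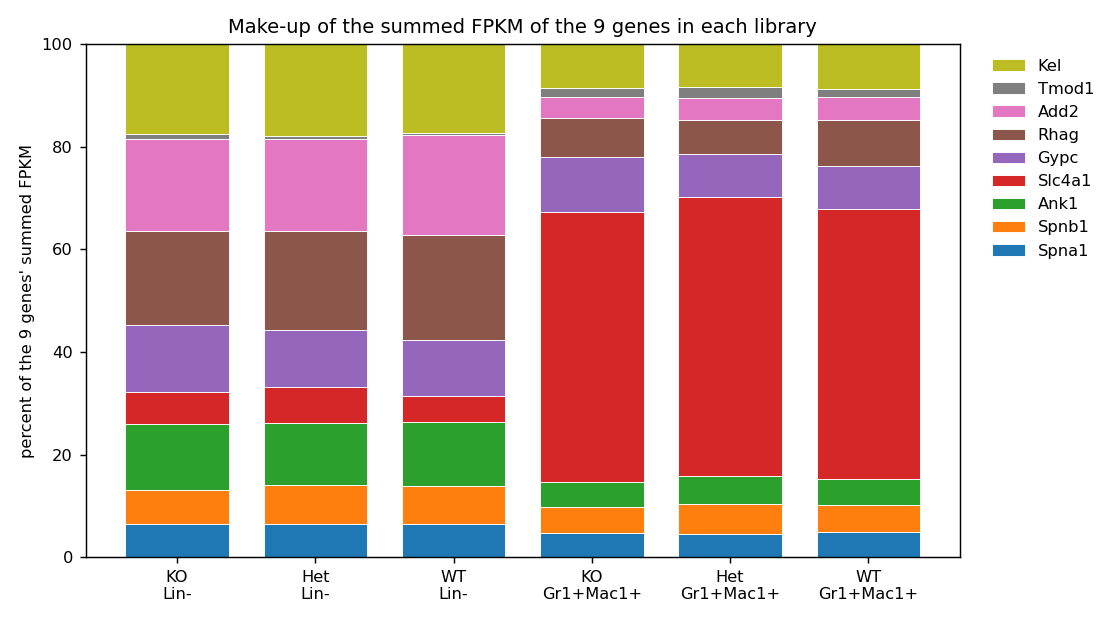
Share (percent) of each gene in the summed FPKM of the 9 genes, 1 bar a library, KO, Het and WT for Lin- and then Gr1+Mac1+ cells. Slc4a1 takes 52.6% to 54.3% of the Gr1+Mac1+ bars and 4.95% to 6.99% of the Lin- bars.

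The 2 fractions could be compared with the 3 pools as pairs (limma on log2(FPKM + 1), Benjamini-Hochberg adjusted over 11489 loci). Since each pool is another genotype, any interaction of genotype and fraction is part of the residual. In Lin- against Gr1+Mac1+ cells, 7 members were higher and 1 was lower, where 51.6% of loci were higher and 30.4% lower, so a call as such was ordinary here and the sizes carry the description. The members' median was 1.54, against 0.33 over all loci. With the libraries rescaled so that the median locus stands near 0, the loci split as 4413 higher and 4573 lower, against 5931 and 3491 as deposited, and the same 7 members were higher and Slc4a1 lower. Without the Het pool, whose Lin- library held neutrophil transcripts, 7 members were higher and 1 lower as well. Of 11464 loci, 5690 were higher and 3355 lower in that fit.

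Add2 had the largest difference, with 92.9 ± 4.70 FPKM in Lin- and 9.96 ± 3.72 in Gr1+Mac1+ cells (SD, n = 3 pools). Its limma log2 ratio was 3.15 (SE 0.17, adjusted p = 0.000151). Rhag averaged 98.0 ± 6.51 FPKM in Lin- and 18.04 ± 7.99 in Gr1+Mac1+ cells, a limma log2 ratio of 2.45 (adjusted p = 0.000399). Ank1 followed with 63.3 ± 0.392 against 11.7 ± 3.67 FPKM (2.38) and Kel with 89.0 ± 3.94 against 20.01 ± 6.68 FPKM (2.15). The spectrins and Gypc had smaller differences of nearly equal size. Spna1 averaged 32.9 ± 0.661 FPKM in Lin- and 11.0 ± 3.70 in Gr1+Mac1+ cells (1.54, adjusted p = 0.00119), Spnb1 36.4 ± 3.94 and 12.4 ± 4.11 (1.53, adjusted p = 0.000737), and Gypc 59.4 ± 4.47 and 20.7 ± 4.62 (1.49, adjusted p = 0.000940). These 7 were higher in Lin- in 3 of 3 pools.

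Slc4a1 was the reverse, with 30.5 ± 5.79 FPKM in Lin- and 122 ± 37.9 in Gr1+Mac1+ cells. Its limma log2 ratio was -1.94 (SE 0.25, adjusted p = 0.00169), lower in Lin- in 3 of 3 pools. The Gr1+Mac1+ level was 2.91 times the Lin- level in the KO pool, 3.23 times in the Het pool and 6.51 times in the WT pool. Tmod1 was not called, with 3.53 ± 1.69 FPKM in Lin- and 4.02 ± 0.958 in Gr1+Mac1+ cells. Its limma log2 ratio was -0.19 (SE 0.33, adjusted p = 0.603). Its pools disagreed: Lin- was 1.84 times Gr1+Mac1+ in the KO pool, 0.710 times with overlapping intervals in the Het pool and 0.440 times in the WT pool. Without the KO pool the Tmod1 ratio was -0.64 (limma, adjusted p = 0.0328), and without the WT pool it was 0.15 (adjusted p = 0.679).

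**Figure D4:**
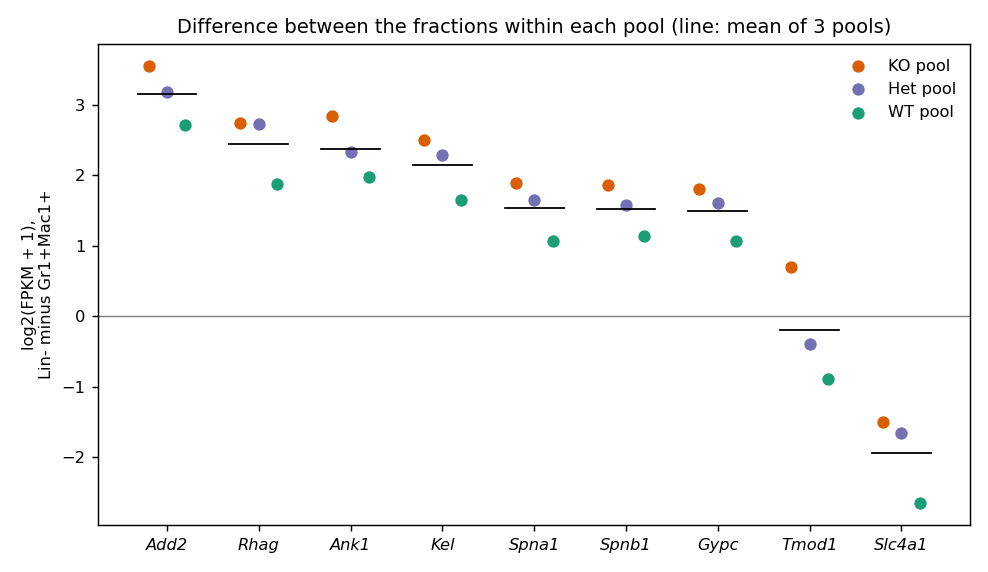
Lin- minus Gr1+Mac1+ difference in log2(FPKM + 1) of each gene within the KO, Het and WT pools (points), ordered by their mean (lines). The 7 genes on the left lie above 0 in 3 of 3 pools, Slc4a1 lies below 0 in 3 of 3, Tmod1 straddles 0, and for each gene the KO point is the highest and the WT point the lowest.

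By level, the order in Lin- cells was Rhag, Add2, Kel, Ank1, Gypc, Spnb1, Spna1, Slc4a1 and Tmod1 by the mean of the 3 pools. Neighbours within the top 3 differed by less than the larger of their SDs over pools. The same held for Ank1 and Gypc, Spnb1 and Spna1, and Spna1 and Slc4a1. Within each Lin- library, though, Rhag, Add2 and Kel held the top 3 places in this order and Tmod1 the last. In Gr1+Mac1+ cells the order was Slc4a1, Gypc, Kel, Rhag, Spnb1, Ank1, Spna1, Add2 and Tmod1. There, Slc4a1 was above the range of the others in each pool. The levels from Gypc to Add2 overlapped in their ranges over pools from neighbour to neighbour, but these ranges hold the shared genotype pattern. Within each Gr1+Mac1+ library Spnb1, Ank1, Spna1, Add2 and Tmod1 came last in this order, and only Gypc, Kel and Rhag changed places. Some steps were small, as for Spnb1, Ank1 and Spna1 at 8.14, 8.04 and 7.98 FPKM in KO.

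Other parts of the red cell membrane were followed in a list of 35 genes, of which 34 were measured in both fractions. In KO against WT Gr1+Mac1+ cells, 27 had negative ratios and the median was -0.19. With separate intervals 19 were lower and 2 higher, where 628 and 592 of all 11270 loci were. Cldn13, a claudin of mouse erythroid cells, was the only list gene past the rule of size, at 23.9 FPKM in KO, 33.1 in Het and 49.5 in WT Gr1+Mac1+ cells. Rhd, the Rh protein that partners Rhag, had 37.7 FPKM in KO, 42.2 in Het and 72.3 in WT Gr1+Mac1+ cells, and like Rhag was near its KO level in Het. The water channel Aqp1 had 53.6 FPKM in KO, 58.3 in Het and 90.3 in WT, and Ermap, an erythroid adhesion protein, 15.1, 21.5 and 29.4 in KO, Het and WT Gr1+Mac1+ cells. Among the most abundant genes of the list, Cd47 had 123 FPKM in KO, 113 in Het and 118 in WT, Cd24a 560, 485 and 597, and tropomyosin Tpm3 303, 304 and 278 in KO, Het and WT Gr1+Mac1+ cells. In Lin- cells the list had a KO against WT median of 0.01, with 6 higher and 4 lower by intervals, where 6.16% and 7.38% of all loci were. In Het against WT, the list's median was 0.06 for Lin- cells and -0.26 for Gr1+Mac1+ cells.

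Between the fractions, 21 of the 34 list genes were higher in Lin- and 7 lower (limma, adjusted p under 0.05), or 19 and 8 after rescaling, beside the 51.6% and 30.4% of all loci. Ermap averaged 223 ± 3.31 FPKM in Lin- and 22.0 ± 7.19 in Gr1+Mac1+ cells (log2 ratio 3.33), Aqp1 526 ± 9.81 and 67.4 ± 19.97 (2.98), the urea channel Slc14a1 67.4 ± 4.84 and 8.32 ± 2.12 (2.90), and Tspo2 113 ± 4.31 and 17.5 ± 6.44 (2.68). Kcnn4, a potassium channel, had a log2 ratio of 2.45 and Slc29a1, a nucleoside carrier, one of 2.41. The 7 lower in Lin- cells, named after their values were seen, were Add3, Mpp1, Tpm3, Slc2a1, Cd44, Flot1 and Flot2.

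Relatives of the 9 genes that serve other cells were listed too, 16 in all, of which 6 had a mean FPKM of at least 1. Their KO against WT median was 0.04 in Gr1+Mac1+ and 0.03 in Lin- cells, and none had separate intervals in either fraction. Of the spectrins of other tissues, Spna2 had 29.7 FPKM in KO, 35.4 in Het and 31.4 in WT Gr1+Mac1+ cells, and Spnb2 had 32.8, 38.2 and 32.2 in KO, Het and WT, so both stood slightly highest in Het. Tmod3, the tropomodulin of non-muscle cells, had 33.3 FPKM in KO, 29.4 in Het and 31.4 in WT Gr1+Mac1+ cells. The exchanger Slc4a2 had 17.6 in KO, 17.1 in Het and 17.0 in WT. Each of these 4 was lower in Lin- than in Gr1+Mac1+ cells, at limma log2 ratios of -2.19 (adjusted p = 0.000109), -1.86, -0.99 and -0.84. For Spna2 and Spnb2 this was opposite to the red cell spectrins. It was not so for the other pairs, since Slc4a1 was also lower in Lin- (-1.94) and Tmod1 was not called (-0.19). Slc4a7 was higher in Lin- (limma log2 ratio 0.67, adjusted p = 0.00131).

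**Figure D5:**
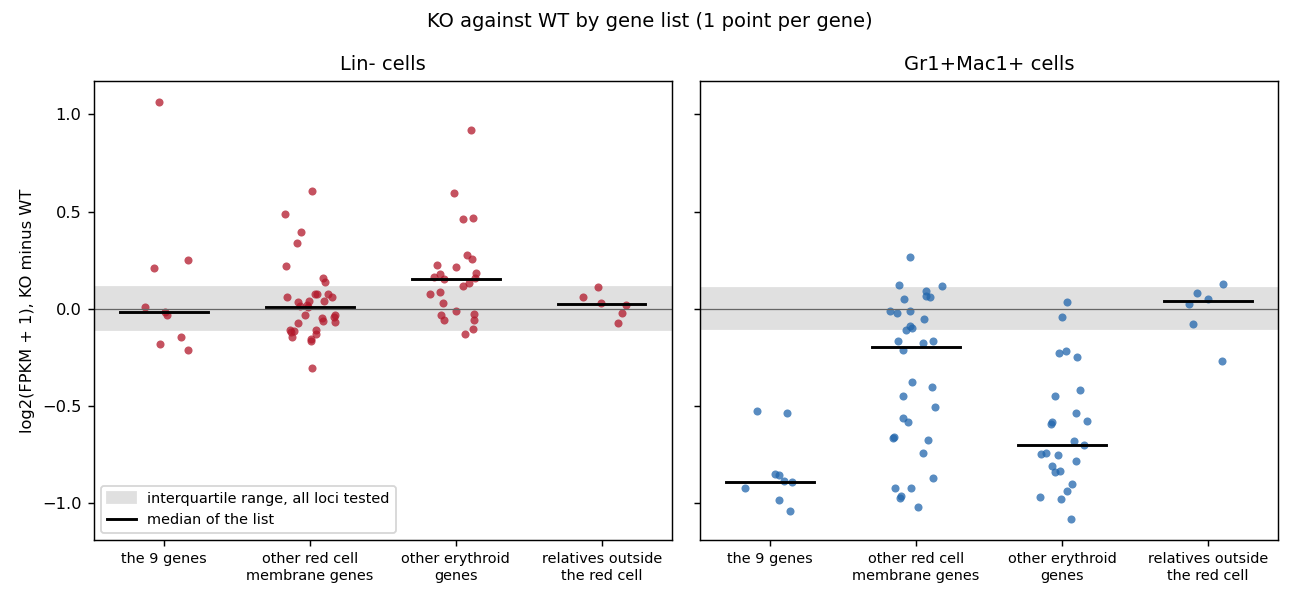
KO minus WT differences in log2(FPKM + 1) of single genes (points) by list in Lin- cells (left) and Gr1+Mac1+ cells (right), with list medians as lines and the interquartile range of all loci tested in grey. In Gr1+Mac1+ cells the medians are -0.89 for the 9 genes, -0.19 for other red cell membrane genes, -0.70 for other erythroid genes and 0.04 for relatives outside the red cell.

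Erythroid genes outside the membrane were low beside the 9. Of 25 measured, 24 had negative KO against WT ratios in Gr1+Mac1+ cells. The list's median was -0.70, and 21 were lower with separate intervals, where 5.57% of all loci were. Their sum was 823 FPKM in KO, 915 in Het and 1216 in WT Gr1+Mac1+ cells. Klf1, a transcription factor of red cell genes and the list's only gene past the rule of size, had 7.61 FPKM in KO, 11.8 in Het and 17.2 in WT cells. In Lin- cells the list leaned up, with a median of 0.15, while the 9 stood at -0.02. There 11 of 25 were higher in KO with separate intervals, where 6.16% of all loci were. In Het against WT, its median was 0.05 for Lin- cells and -0.43 for Gr1+Mac1+ cells. Stromal markers in the same Gr1+Mac1+ libraries were higher in KO than in WT in 5 of 5, 3 of them with separate intervals, where 592 of 11270 loci were. Their sums were 23.1 FPKM in KO, 28.8 in Het and 14.04 in WT. The 9 neutrophil markers summed to 162900, 134700 and 144100 in KO, Het and WT, and 7 were higher in KO than in WT with separate intervals. So were 4 of 9 monocyte and macrophage markers, which summed to 498 FPKM in KO, 489 in Het and 454 in WT. No marker of these lists was lower in that way. The part of these cells in the values of the 9 genes was not tested.

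Between the fractions, 20 of these 25 were higher in Lin- cells and 4 were lower (limma, adjusted p under 0.05), beside the 51.6% and 30.4% of all loci. The largest limma log2 ratios were those of the carbonic anhydrase Car1 (5.15, adjusted p = 0.000109), the pyruvate kinase Pklr (4.56), Gfi1b (3.79), Klf1 (3.18), Car2 (3.15) and the erythropoietin receptor Epor (3.06). The 4 lower, named after their values were seen, were Alas2, the first enzyme of erythroid haem synthesis, the transcription factor Nfe2, Bpgm, which makes bisphosphoglycerate, and the mitochondrial iron carrier Slc25a37. Alas2 had 36.4 FPKM in KO, 16.8 in Het and 18.7 in WT Lin- cells, and 90.3, 94.5 and 124 in KO, Het and WT Gr1+Mac1+ cells. Like Slc4a1, it was higher in the Gr1+Mac1+ fraction, and lower in KO than in WT there.

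The genes whose profile over the 6 libraries was nearest to the mean profile of the 9 were Pigq, Btnl10, Uros, Ubac1, Atp2b4, 6230427J02Rik, Isg20 and Arhgef12, out of 8708 loci with a mean FPKM of at least 5. The measure was the root mean square difference of centred log2(FPKM + 1), and it was 0.08 for Pigq and 0.13 for Arhgef12. By the same measure Spna1 stood at 0.09, Gypc at 0.12 and Spnb1 at 0.13 from that mean. The other members were farther from it than these 8 genes. Kel stood at 0.38, Ank1 at 0.50, Rhag at 0.55, Tmod1 at 0.85, Add2 at 0.88 and Slc4a1 at 1.67, the farthest of the 9. Pigq had 90.8 FPKM in KO, 97.1 in Het and 95.6 in WT Lin- cells, and 29.7, 38.1 and 49.3 in KO, Het and WT Gr1+Mac1+ cells. Atp2b4, the calcium pump of the red cell membrane, had 27.5, 28.7 and 27.4 FPKM in KO, Het and WT Lin- cells, and 8.28, 10.1 and 11.7 in KO, Het and WT Gr1+Mac1+ cells. Taken for Slc4a1 alone after its values were seen, the nearest locus was Capn2 at 0.22, with 17.9 FPKM in KO, 20.3 in Het and 21.8 in WT Gr1+Mac1+ cells, a flatter genotype pattern than that of Slc4a1.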

How the data were processed

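The 6 libraries were made from total RNA of Lin- and Gr1+Mac1+ bone marrow cells, 1 library for each genotype and fraction, by Illumina protocols per the labels. The authors deposited FPKM per locus with lower and upper bounds and a status, per the file headers; 23427 of 23746 loci had status OK in all libraries. Per the submitters' processing notes, TopHat2 2.0.7, TopHat and Cufflinks 2.0.2 were used with mm10; their roles, the annotation and strand use were not stated there. FPKM is relative to the library's total, so very abundant genes lower the rest.

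Fragments behind a value were implied from its interval as if it held counting error alone. Standard errors of ratios, called counting SE, carry only the error of the intervals. Between genotypes a rule of size was used: a ratio of 2-fold or more on log2(FPKM + 1), 5 FPKM or more in the higher library, separate 95% intervals and status OK in both. Loci with a mean FPKM of at least 1 over the fraction's libraries were tested. Counts by separate intervals alone are also given. For the fractions, limma 3.58.1 under R 4.3.3 was run with trend and the pool as a block. The labels' protocols say that 1 pool of mice gave both; the pools' deviations correlated by -0.01 (KO), -0.06 (Het) and 0.10 (WT) across loci. The fit was tested on simulated data. The members and the lists were chosen with earlier results of these data known. All 9 genes are named, with, per list, up to 4 past the rule of size, up to 6 by the largest ratio between fractions, and the most abundant. Of 138 list symbols 136 matched. Promoters are from RefSeq on GRCm38.p6 and transcript overlaps from GENCODE. Alternatives were other pseudocounts, filters and folds, no interval criterion, rescaling, no block, and each pool left out. Other steps ran in Python 3.11.15 (pandas 2.3.3, numpy 2.4.6, and for figures matplotlib 3.10.9).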

Additional observations from a re-analysis of the deposited data

Results flagged for a closer look

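Some members moved one way in Lin- and the other way in Gr1+Mac1+ cells with separate intervals in both, and these differences between fractions were not tested. In KO against WT, the log2 ratio in Lin- minus that in Gr1+Mac1+ cells was 1.15 for Slc4a1 (counting SE 0.06), 0.74 for Gypc (0.10) and 1.59 for Tmod1 (0.20). In Het against WT it was 0.44 for Spnb1 (0.05) and 0.99 for Slc4a1 (0.05). Slc4a1 is the only gene on both lists. The Lin- values of Tmod1 rest on 73 to 177 implied fragments, and the Het values use the Lin- library that held neutrophil transcripts. With 1 library per group, no group was large enough to look for a sample far from the others.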

How the results depend on the processing

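The number of members past the rule of size in KO against WT Gr1+Mac1+ cells was 1 as reported. It was 2 with a pseudocount of 0.1, both lower, where 21 of 11270 loci were lower and 7 higher. At 1.5-fold it was 7, all lower, where 87 loci were lower and 29 higher. It was 0 with a pseudocount of 5 (3 loci lower, 3 higher) or at 3-fold (2 lower, 3 higher). In Lin- cells it was 1 as reported and 0 with a pseudocount of 5 (7 of 10952 loci higher, 3 lower) or at 3-fold (3 higher, 4 lower). At 1.5-fold it was 1 in Het against WT Gr1+Mac1+ and 1 in KO against Het Lin- cells, against 0 at 2-fold. Counts by separate intervals did not move with rescaling, an alternative chosen after seeing the data. Between fractions, 8 members were called under each alternative, also without the pool as a block. With 1 pool left out 8 to 9 were called. Loci at large were often called too, 6052 higher and 3530 lower of 11489 without the block. Without the filter on low values 5686 were higher and 3668 lower of 23427. Without the KO pool, where 9 members were called, 5481 were higher and 3238 lower of 11476. Tmod1 turned to 0.15 without the WT pool and became a call without the KO pool (-0.64). No other called ratio changed sign. The larger pseudocount shrinks ratios of low genes by construction. Depth limits Tmod1 most, with 73 to 191 implied fragments a library, and no setting can stand in for replicate libraries, which the genotypes lack. Tmod1 was left out by the filter at a mean FPKM of 5.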
